A study of Mus musculus with 44 samples.

Results

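Emx1, Emx2, Neurod2, Neurod6, Tbr1, Fezf2, Bhlhe22 and Cux2 are transcription factors of cortical projection neurons, the excitatory neurons of the cerebral cortex that send axons to other areas. They were taken by name as 8 of the 21900 protein-coding genes of the mm10 gene table. Each was read through the chromatin peaks that overlap its gene span extended by 20 kb on both sides, and through its row in an RNA count table. The study set mice labelled Polg(D181A), after a mutation in the DNA polymerase of mitochondria, against wild-type (WT) mice. H3K27ac, an acetylation of histone H3 found at active promoters and enhancers, was profiled in cortex (COR), paraventricular thalamic nucleus (PVT), caudate putamen (CP) and nucleus accumbens (NAC), with 2 Polg(D181A) and 2 WT libraries per region. ATAC-seq, which marks open chromatin, covered 2 Polg(D181A) and 2 WT libraries of the PVT. RNA came from the PVT in 5 groups of 4 libraries, of which 4 groups were Polg(D181A) and 1 was WT.

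The RNA groups combined the labelled behavioural state with staining for cytochrome c oxidase (COX), an enzyme of the mitochondrial respiratory chain. They were depressive COX-negative, depressive COX-positive, euthymic COX-negative and euthymic COX-positive Polg(D181A) samples, and euthymic COX-positive WT samples. All mice were labelled adult. The strain was given as C57BL/6, except that the ATAC labels read C57BL/9 and C57BL/10 for the Polg(D181A) libraries and C57BL/7 and C57BL/8 for the WT libraries. Nuclei for H3K27ac and ATAC were sorted on NeuN, a nuclear protein of neurons, per the labels' protocols, so these tables describe neuronal nuclei of a dissected region and not 1 neuron class. As background that the labels do not give, the mutant polymerase is carried by a transgene that is active in forebrain neurons. The labels do not tie replicates to separate animals, and the p-values therefore measure a spread between libraries that may be technical.

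These factors act at successive steps of the making of cortical excitatory neurons. Emx1 and Emx2 are homeodomain proteins that pattern the cortical progenitor zone, Neurod2, Neurod6 and Bhlhe22 are basic helix-loop-helix (bHLH) factors of young and maturing projection neurons, and Tbr1, Fezf2 and Cux2 are linked with early-born corticothalamic, subcerebral and upper-layer neurons. A thalamic or striatal neuron is not a product of that program, although single members of it, Cux2 among them, are also used outside the cortex. The bHLH factors bind E-boxes, short DNA sites of the form CANNTG.

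Promoters are printed for the 4 genes whose annotated promoter lay wholly inside a COR peak, Emx1, Neurod2, Neurod6 and Tbr1, and for both annotated promoters of Cux2, of which the inner lay wholly inside a PVT peak and the outer wholly inside a NAC peak. Each runs from 250 bases before to 50 bases after the annotated start, 5′ to 3′ on the gene's strand, from RefSeq (GRCm38.p6, which is mm10), with E-boxes of the form CANNTG in capitals.
Emx1 (chr6:85187681-85187980, plus strand): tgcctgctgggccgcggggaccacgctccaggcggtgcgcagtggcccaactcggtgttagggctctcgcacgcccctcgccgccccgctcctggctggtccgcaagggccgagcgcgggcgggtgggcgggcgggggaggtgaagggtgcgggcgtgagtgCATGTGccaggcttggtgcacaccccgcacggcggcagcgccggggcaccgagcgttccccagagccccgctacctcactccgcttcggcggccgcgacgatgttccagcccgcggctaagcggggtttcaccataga
Neurod2 (chr11:98329596-98329895, minus strand): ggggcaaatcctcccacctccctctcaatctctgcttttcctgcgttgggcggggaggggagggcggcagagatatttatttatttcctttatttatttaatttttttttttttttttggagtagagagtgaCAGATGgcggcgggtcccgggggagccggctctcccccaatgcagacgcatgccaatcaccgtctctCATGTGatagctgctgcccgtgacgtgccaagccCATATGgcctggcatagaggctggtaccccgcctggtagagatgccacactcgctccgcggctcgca
Neurod6 (chr6:55681214-55681513, minus strand): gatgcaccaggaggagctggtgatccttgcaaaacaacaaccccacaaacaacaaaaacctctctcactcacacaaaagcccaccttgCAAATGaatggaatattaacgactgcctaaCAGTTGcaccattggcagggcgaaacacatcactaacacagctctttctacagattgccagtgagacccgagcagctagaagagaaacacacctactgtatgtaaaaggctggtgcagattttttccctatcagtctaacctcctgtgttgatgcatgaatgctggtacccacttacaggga
Tbr1 (chr2:61804203-61804502, plus strand): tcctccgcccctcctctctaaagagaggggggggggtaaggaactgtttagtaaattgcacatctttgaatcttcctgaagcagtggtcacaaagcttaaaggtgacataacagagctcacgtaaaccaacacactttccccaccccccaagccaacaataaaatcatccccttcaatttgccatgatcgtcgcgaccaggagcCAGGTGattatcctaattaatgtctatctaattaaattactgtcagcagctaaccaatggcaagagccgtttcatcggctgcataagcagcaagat
Cux2, inner start (chr5:122047776-122048075, minus strand): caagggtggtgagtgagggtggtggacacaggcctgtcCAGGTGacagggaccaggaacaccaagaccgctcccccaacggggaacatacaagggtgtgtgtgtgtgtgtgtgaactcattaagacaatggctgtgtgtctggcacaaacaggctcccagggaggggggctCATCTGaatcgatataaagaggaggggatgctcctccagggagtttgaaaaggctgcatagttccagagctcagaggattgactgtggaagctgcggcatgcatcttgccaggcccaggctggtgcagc
Cux2, outer start (chr5:122049802-122050101, minus strand): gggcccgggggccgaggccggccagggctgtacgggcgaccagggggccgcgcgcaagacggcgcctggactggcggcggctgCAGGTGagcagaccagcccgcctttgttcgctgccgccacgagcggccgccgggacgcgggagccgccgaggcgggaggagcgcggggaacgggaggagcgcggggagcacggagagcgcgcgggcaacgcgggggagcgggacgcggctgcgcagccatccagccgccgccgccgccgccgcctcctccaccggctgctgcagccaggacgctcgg

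Motifs were searched on both strands of these windows. An E-box CANNTG was present in 72.3% of all 32851 promoters of the table, and in the promoters of Neurod2 (3), Neurod6 (2), Emx1 (1), Tbr1 (1) and Cux2 (2 at the inner and 1 at the outer start). The promoters of Emx2 and Fezf2, read from the same table, held none of these letters in this window. CAGATG, one form of the E-box, stood once in the Neurod2 promoter and once in the inner Cux2 promoter, against 17.2% of all promoters. TAATTA, a core letter run bound by many homeodomain proteins, stood 2 times in the Tbr1 promoter and once in the Emx2 promoter, against 5.29% of all promoters. The promoters also differed in CG content, with 48 CG dinucleotides at the outer Cux2 start, 37 at Emx1, 26 at Emx2, 20 at Fezf2, 16 at Neurod2, 7 at Tbr1, 4 at the inner Cux2 start and 3 at Neurod6, where the median over all promoters was 7. Of the 8 member promoters in the table, 4 lay wholly in a COR peak, 1 in a PVT peak, 0 in a CP peak and 1 in a NAC peak, and an ATAC peak of the PVT touched 2 of them, those of Emx1 (234 of 300 bases) and the outer Cux2 start (163 of 300 bases). Bhlhe22 is named without a promoter. Protein-coding neighbours reached into most windows: Psmd14 lay 2487 bp from Tbr1, Pheta1 3358 bp from Cux2, Gm33099 4809 and Ppp1r1b 18761 bp from Neurod2, Sfxn5 8586 bp from Emx1, Cyp7b1 14430 bp from Bhlhe22 and 3830406C13Rik 14500 bp from Fezf2.

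Peak tables were made per region, so a region with no listed peak has no value for that window, which is not the same as 0 reads. Where several windows are summed, libraries of all 4 regions correlated, or genes with a peak in any table fitted, such a window was entered as 0. Total counts ranged from 52566179 to 197650530 per COR library, from 52759552 to 146450422 in PVT, from 12048787 to 101443484 in CP, from 6415127 to 80516545 in NAC and from 2932270 to 8040451 in ATAC. The WT replicate 2 libraries of CP and NAC stood apart, with 80.8% and 69.6% of their peaks at 0 counts, against 15.7% to 52.5% in the other COR, CP and NAC libraries and 7.10% to 13.8% in PVT. Thalamic and striatal markers were highest in their own regions. The 10 thalamic marker genes summed to 470 to 527 CPM (counts scaled to library size by TMM) in COR libraries, 4183 to 5516 in PVT, 262 to 361 in CP and 198 to 348 in NAC. The 17 striatal marker genes summed to 1378 to 1510 CPM in COR, 1716 to 1962 in PVT, 4308 to 9392 in CP and 4180 to 6377 in NAC. Sums of other cortical genes overlapped between COR and both striatal regions. The 34 other cortical transcription factors summed to 5376 to 8440 CPM in COR, 3276 to 3909 in PVT, 4061 to 8243 in CP and 3750 to 6163 in NAC. For 12 genes of cortical excitatory neuron function it was 1863 to 2851, 1530 to 1727, 1488 to 2448 and 1362 to 2003 CPM. The 5 pan-neuronal markers summed to 2092 to 2982 CPM in COR, 1924 to 2215 in PVT, 1783 to 4105 in CP and 2008 to 3237 in NAC. Of the defining glial lists, 7 oligodendrocyte markers ran from 413 to 720 CPM over all 4 regions, while 6 astrocyte markers ran from 372 to 554 CPM in COR, 524 to 599 in PVT, 89.3 to 293 in CP and 114 to 237 in NAC. The part that other cell types had in the results below was not tested.

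At 4 of the 8 factors, every COR library held more H3K27ac in the window than any library of another region with a listed peak. The share of all windows whose libraries separate by region, here or for single genes below, was not computed. The count is therefore not set against a background. These were Emx1, Neurod6, Tbr1 and Fezf2. PVT listed no peak for Emx1 and Fezf2, and NAC none for Neurod6. A peak covered the annotated start of Emx1, Neurod2, Neurod6 and Tbr1 in the COR table and in no other H3K27ac table. Summed over all 8 windows, COR libraries held 726 to 916 CPM, PVT libraries 349 to 474, CP libraries 231 to 421 and NAC libraries 264 to 363. Cux2 supplied most of the PVT sum. COR tables listed a peak in all 8 windows, PVT tables in 5, CP tables in 8 and NAC tables in 7.

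Emx1 had 155 and 94.2 CPM in the Polg(D181A) and 149.6 and 101 CPM in the WT libraries of COR. CP libraries had 0 and 6.4 CPM in Polg(D181A) and 39.5 and 47.7 CPM in WT, and NAC libraries 1.35 and 28.8 CPM in Polg(D181A) and 8.62 and 0 CPM in WT. No PVT peak was listed within 20 kb of Emx1. All 4 COR libraries lay above every CP and NAC library. In COR, 13 peaks covered 18621 bp, or 32.9% of the window, and the strongest spanned 5522 bp over the start (chr6:85186617-85192138). The 3 CP peaks were 251 bp each and the 2 NAC peaks covered 1885 bp, none of them over the start. Emx1, Emx2, Neurod6 and Fezf2 lacked a peak in at least 1 table and were fitted in an alternative only. It took in the 19522 genes with a peak in any table that passed its filter, and a window with no listed peak in a region was entered as 0 there. A gene could thus enter through its peaks in 1 region. In this fit edgeR called 18.1% of genes in COR over PVT, 18.7% in COR over CP and 12.5% in COR over NAC. In that fit Emx1 did not pass in COR over CP (log2 change 3.37, adjusted p = 0.179) or COR over NAC (3.93, adjusted p = 0.155). Although PVT had no H3K27ac peak here, ATAC listed 3 PVT peaks, 1 of them over the start of Emx1 (chr6:85187747-85188075), with 0.257 and 2.43 CPM in Polg(D181A) and 2.98 and 4.79 CPM in WT libraries. The difference between genotypes at that site did not pass (log2 change -1.41, adjusted p = 0.821, edgeR quasi-likelihood).

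Emx2 was the weakest of the 8 in cortex per length, at 0.295 CPM per kb of window. COR libraries had 20.1 and 9.23 CPM in Polg(D181A) and 13.7 and 12 CPM in WT, over 4 peaks that covered 1513 bp. CP libraries had 0 and 35.9 CPM in Polg(D181A) and 10.5 and 0 CPM in WT, NAC had 5.42 CPM in 1 Polg(D181A) library and 0 in the other 3, and PVT had no peak. The COR and CP ranges overlapped, so cortex did not stand above CP at Emx2 (log2 change 0.52 for COR over CP in the any-table fit, adjusted p = 0.975). The strongest CP peak (chr19:59457946-59458535) ended 155 bp before the Emx2 start, inside the antisense gene Emx2os, whose start lies 55 bp from that of Emx2.

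Fezf2 had 45.5 and 53.7 CPM in the Polg(D181A) and 45.8 and 48.2 CPM in the WT libraries of COR, the narrowest relative spread of any member there (48.3 ± 3.8, SD, n = 4). CP libraries had 10.8 CPM in 1 WT library and 0 in the other 3, and NAC libraries 6.22 and 11.3 CPM in Polg(D181A) and 5.43 and 0.996 CPM in WT. The COR libraries lay above all CP and NAC libraries without overlap. In the any-table fit Fezf2 passed in COR over CP (adjusted p = 0.0258, with 3 of 4 CP libraries at 0) and not in COR over NAC (log2 change 3.16, adjusted p = 0.264). Its sums held 6199 bp of called peak in COR and 251 bp in CP. How far the peak calls of each region and the rule of entry set this result was not tested. The 7 COR peaks flanked the start of Fezf2 without covering it, the nearest at 656 bp inside the gene (chr14:12344060-12345209) and 1043 bp before it (chr14:12346908-12347831). PVT again had no H3K27ac peak, while ATAC listed 4 PVT peaks in the window, the strongest with 5.65 and 4.86 CPM in Polg(D181A) and 7.21 and 4.06 CPM in WT (chr14:12331029-12331576).

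Neurod6 showed the widest cortical peak of the set. A COR peak of 14830 bp ran across the whole gene and its start (chr6:55674051-55688880), and the window held 149 and 110.4 CPM in Polg(D181A) and 126 and 82.7 CPM in WT libraries of COR. PVT libraries held 3.22 and 2.54 CPM in Polg(D181A) and 3.19 and 4.97 CPM in WT, all in 1 peak of 193 bp that lay 10297 bp from the gene (chr6:55667329-55667521). CP libraries held 49.7 and 31.5 CPM in Polg(D181A) and 1.29 and 0 CPM in WT, over 3 peaks that covered 824 bp, and NAC had none. The COR libraries stood above all PVT and CP libraries without overlap. In the any-table fit Neurod6 passed in COR over PVT (log2 change 5.10, adjusted p = 0.00968) and COR over CP (4.49, adjusted p = 0.0155). How far the length called as peak in each region and the rule of entry set these changes was not tested. Per kb of called peak the order was another, with 7.77 CPM per kb in COR, 18 in PVT and 25 in CP, where the PVT and CP peaks were short.

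**Figure D1:**
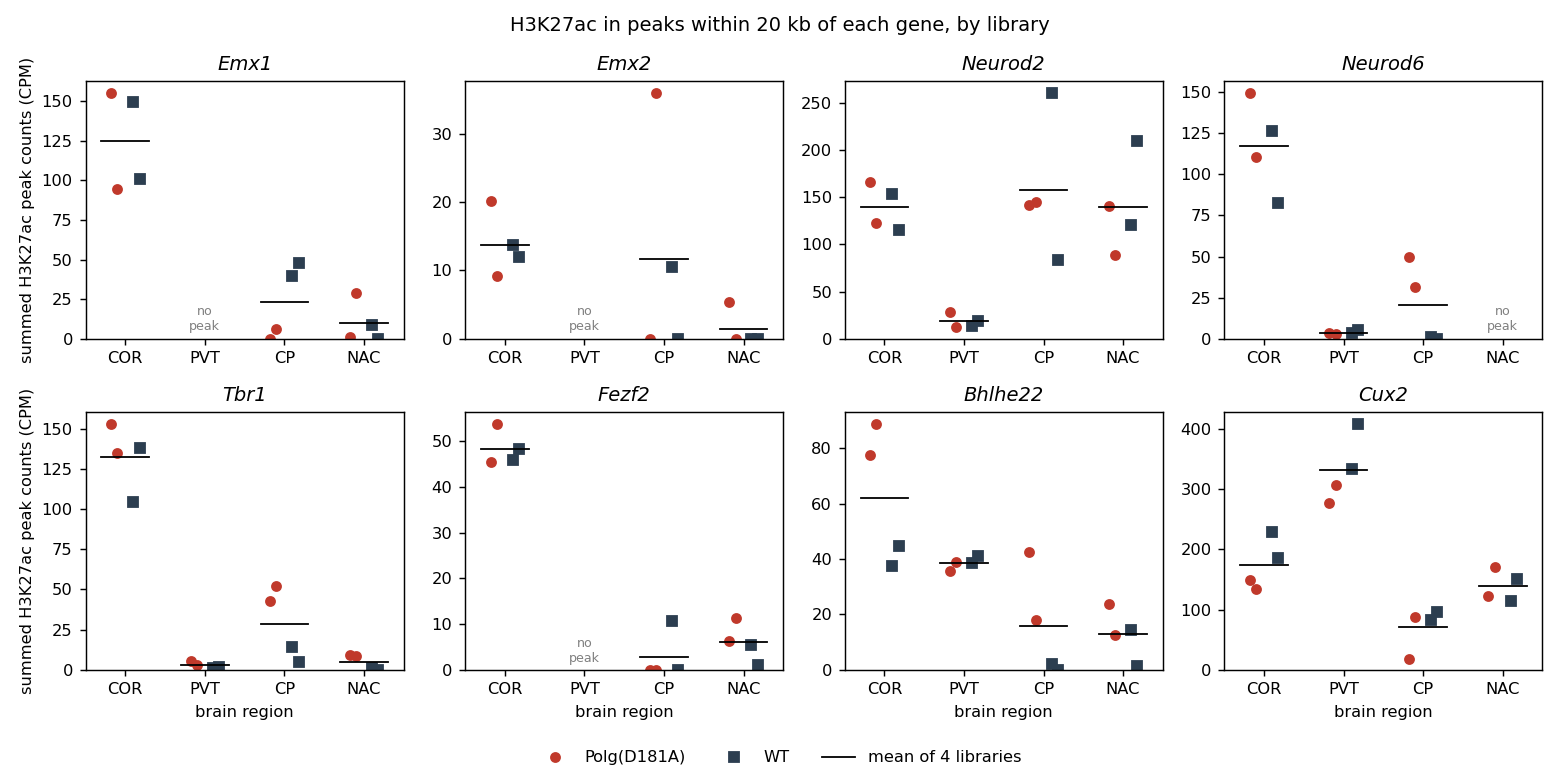
Summed H3K27ac peak counts (CPM, y axis from 0) within 20 kb of each of the 8 genes, by brain region (x axis), with Polg(D181A) libraries as circles, WT libraries as squares and the mean of the 4 libraries as a line. COR lies above the other regions with a listed peak for Emx1, Neurod6, Tbr1 and Fezf2. The 3 regions COR, CP and NAC overlap at Neurod2, and PVT is highest at Cux2. The mark "no peak" stands for a table with no listed peak.

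Tbr1, Neurod2, Bhlhe22 and Cux2 had a peak in all 4 tables and could be tested among the 15373 genes of which that was true. Counts were summed per window and fitted over all 16 H3K27ac libraries with the edgeR quasi-likelihood test, with Benjamini-Hochberg adjustment over all 15373 genes and a threshold of 0.05 on the adjusted p. COR over PVT gave 2 calls among the 4 factors, both higher, where 13.4% of all tested genes were called (7.44% higher, 5.99% lower). COR over CP gave 2, both higher, against 14.4% of all genes (8.22% higher, 6.17% lower), and COR over NAC 1, higher, against 9.16% (4.39% higher, 4.77% lower). PVT over CP gave 1 higher and 2 lower, against 22.7% (12.5% higher, 10.2% lower), PVT over NAC 1 higher and 1 lower, against 15.7% (7.49% higher, 8.17% lower), and CP over NAC 1 higher, against 5.12% (1.61% higher, 3.51% lower). Their median log2 change was 1.77 in COR over PVT, 1.98 in COR over CP and 1.29 in COR over NAC, beside medians of -0.03, 0.27 and 0.09 over all tested genes. With 4 genes, and with genes chosen for cortical use, these counts say nothing about transcription factors in general.

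Tbr1 was higher in cortex than in each of the other regions. Its window held 152.5 and 135 CPM in Polg(D181A) and 104 and 138 CPM in WT libraries of COR, against 5.71 and 2.69 CPM in Polg(D181A) and 0.811 and 1.65 CPM in WT libraries of PVT. CP libraries held 42.7 and 52.3 CPM in Polg(D181A) and 14.1 and 4.74 CPM in WT, and NAC libraries 9.33 and 8.59 CPM in Polg(D181A) and 0.858 and 0 CPM in WT. Every COR library exceeded every library of the other regions. The log2 change was 5.86 (SE 0.89, adjusted p = 0.000915) for COR over PVT, 5.97 (SE 0.89, adjusted p = 0.00181) for COR over NAC and 2.64 (SE 0.76, adjusted p = 0.0387) for COR over CP. Tbr1 was also lower in PVT than in CP (log2 change -3.22, adjusted p = 0.0114) and higher in CP than in NAC (log2 change 3.34, adjusted p = 0.0337), and PVT and NAC did not differ beyond their spread (0.11, SE 0.72). COR over PVT and COR over NAC passed with any 1 library left out. COR over CP lost its call without any 1 COR library or either Polg(D181A) library of CP (2.53 to 2.73, adjusted p from 0.0721 to 0.115). CP over NAC lost its call without CP Polg(D181A) replicate 1 (3.40, adjusted p = 0.0525) or NAC Polg(D181A) replicate 1 (3.37, adjusted p = 0.118) or 2 (3.31, adjusted p = 0.121), and PVT over CP without PVT Polg(D181A) replicate 2 (-3.00, adjusted p = 0.0628) or PVT WT replicate 1 (-3.04, adjusted p = 0.0556). COR over CP and CP over NAC also lost their calls with windows of 1 kb (adjusted p = 0.218 and 0.114), with windows of 5 kb (0.158 and 0.0916), without peaks over another protein-coding gene (0.0905 and 0.273) and with the replicate block (0.0615 and 0.0649). PVT over CP lost its call with windows of 5 kb (0.296) and without peaks over another protein-coding gene (0.199).

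The cortical Tbr1 signal lay on the gene. A COR peak of 9071 bp covered the start (chr2:61800793-61809863), and with 3 more peaks of the gene and its 3′ side it made up most of the 14002 bp covered, while the 2 PVT peaks covered 360 bp and the 2 NAC peaks 634 bp. One PVT peak (chr2:61811653-61811803) and the single ATAC peak of the window (chr2:61811660-61812239, 5.14 and 6.96 CPM in Polg(D181A), 4.73 and 5.16 CPM in WT) met inside the gene, 7200 and 7207 bp past the start, at a place that a COR peak also covered. Counted within 1 kb of the gene alone, Tbr1 had 103.9 ± 28.5 CPM in COR, 1.03 ± 1.29 in PVT, 17.2 ± 16.4 in CP and 2.33 ± 4.67 in NAC (SD, n = 4 each). Per kb of called peak the regions were close, at 9.45 CPM per kb in COR, 7.54 in PVT, 9.37 in CP and 7.40 in NAC, and none of the Tbr1 changes passed on that scale (0.58 on the log2 scale for COR over PVT). On that scale no gene at all was called in COR over PVT, COR over NAC or PVT over NAC. A lost call in those contrasts is therefore not particular to Tbr1. The length called as peak moved with the window sums of Tbr1, and its part in them was not tested.

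**Figure D2:**
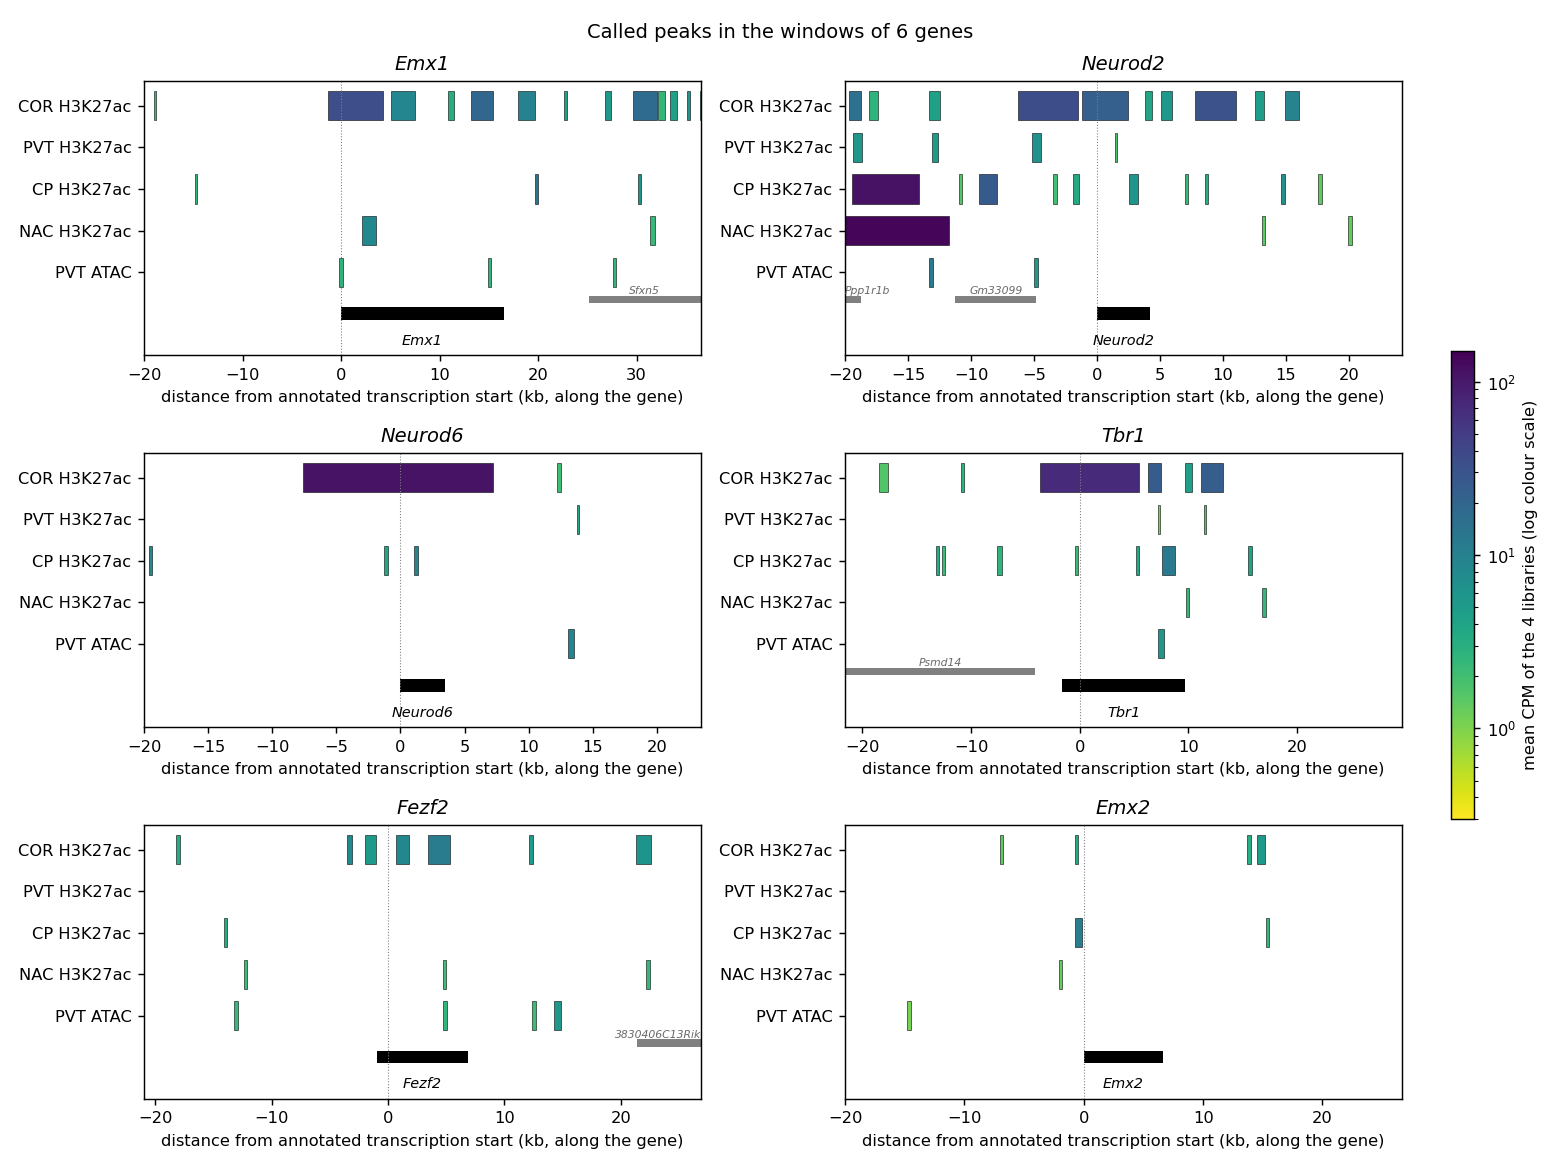
Called peaks in the windows of 6 genes, by distance from the annotated transcription start (x axis, kb along the gene) and by table (rows), coloured by mean CPM of the 4 libraries of the table on a log scale. The COR peak of 14830 bp at Neurod6 and that of 9071 bp at Tbr1 cross the start, the COR peaks at Fezf2 flank it, and the strong CP and NAC peaks in the Neurod2 window lie 14096 and 11732 bp before its start, reaching Ppp1r1b; black bars are the genes and grey bars protein-coding neighbours.

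Neurod2 looked alike in cortex and striatum until its peaks were placed. Its window held 167 and 123 CPM in Polg(D181A) and 154 and 115 CPM in WT libraries of COR, 28.5 and 12.1 CPM in Polg(D181A) and 13.8 and 18.8 CPM in WT libraries of PVT, 142 and 145 CPM in Polg(D181A) and 261 and 83.3 CPM in WT libraries of CP, and 140.5 and 88.8 CPM in Polg(D181A) and 120.3 and 209.9 CPM in WT libraries of NAC. PVT libraries lay below all others, and COR, CP and NAC overlapped. COR over PVT gave a log2 change of 2.94 (SE 0.43, adjusted p = 0.000706), PVT over CP -3.11 (SE 0.43, adjusted p = 0.000352) and PVT over NAC -2.92 (SE 0.43, adjusted p = 0.000655), all 3 of which passed with any 1 library left out. COR over CP (-0.17, SE 0.40) and COR over NAC (0.02, SE 0.40) did not pass.

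The peaks behind these sums differed. In COR, a peak of 3613 bp covered the Neurod2 start (chr11:98327203-98330815) and a peak of 4789 bp followed 1483 bp before it (chr11:98331128-98335916). The latter overlapped the protein-coding neighbour Gm33099. In CP and NAC no peak covered the start. The strongest CP peak was 5354 bp (chr11:98343741-98349094) and the strongest NAC peak 12530 bp (chr11:98341377-98353906), and both overlapped Ppp1r1b, which encodes DARPP-32, a signalling protein of striatal projection neurons, and which lies 18761 bp from Neurod2. On the scale of their own tables these peaks had 66.9 and 108 CPM in Polg(D181A) and 225 and 59.0 CPM in WT libraries of CP, and 129 and 89.1 CPM in Polg(D181A) and 173 and 165 CPM in WT libraries of NAC. Without peaks that overlap another protein-coding gene, a choice made after the peaks had been seen, the Neurod2 window held 87.7 ± 17.1 CPM in COR, 6.75 ± 5.43 in PVT, 22.3 ± 17.4 in CP and 2.80 ± 5.59 in NAC (SD, n = 4 each). Every COR library, from 65.7 to 104 CPM, then lay above every other library, of which the highest had 40.8 CPM in CP. COR over NAC passed on those sums (log2 change 9.84, adjusted p = 0.0364, with 3 of 4 NAC libraries at 0), and COR over CP (2.14, adjusted p = 0.452) and COR over PVT (3.68, adjusted p = 0.219) did not. On the same sums PVT over CP lost its call (-1.55, adjusted p = 0.557) and PVT over NAC turned to 6.16 (adjusted p = 0.116). Within 1 kb of the gene COR held 33.6 ± 7.9 CPM, PVT 1.70 ± 2.46 and CP 5.12 ± 8.31 (SD, n = 4 each), and NAC had no peak. Per kb of called peak COR over PVT turned to -0.092 on the log2 scale, in a fit that called no gene at all in that contrast. The 2 ATAC peaks of the PVT lay 4697 and 12985 bp before the gene.

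**Figure D3:**
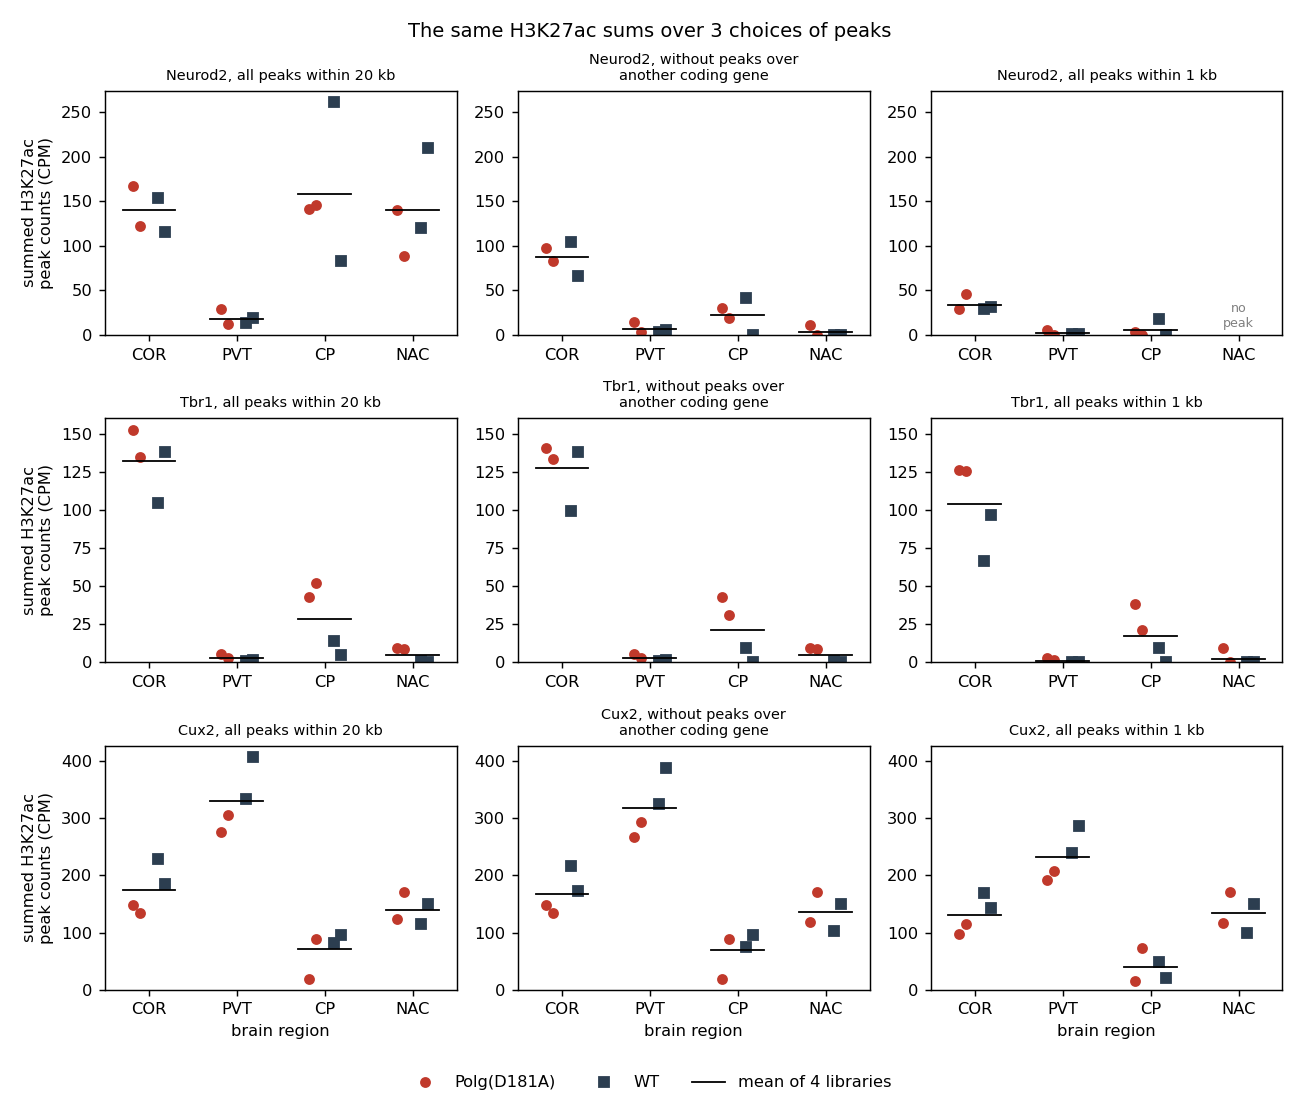
Summed H3K27ac peak counts (CPM, y axis from 0, shared within a row) of Neurod2, Tbr1 and Cux2 by brain region (x axis) over all peaks within 20 kb, without peaks over another protein-coding gene, and within 1 kb, with Polg(D181A) libraries as circles, WT libraries as squares and means as lines. Without neighbour peaks the Neurod2 mean falls from 139.5 to 87.7 CPM in COR, from 157.9 to 22.3 in CP and from 139.9 to 2.80 in NAC. The order of the regions stays at Tbr1, and at Cux2 COR and NAC come to 131 and 134 CPM within 1 kb.

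Bhlhe22 had a peak in every region, and its COR, PVT and CP ranges overlapped. COR libraries had 77.7 and 88.6 CPM in Polg(D181A) and 37.6 and 44.6 CPM in WT, and PVT libraries 35.7 and 38.9 CPM in Polg(D181A) and 38.6 and 41.2 CPM in WT. CP libraries had 42.6 and 17.9 CPM in Polg(D181A) and 2.04 and 0 CPM in WT, and NAC libraries 23.7 and 12.7 CPM in Polg(D181A) and 14.3 and 1.49 CPM in WT. The COR and PVT ranges overlapped, and all NAC libraries lay below all COR and PVT libraries. Each region listed a peak over the gene itself, of 3378 bp in COR, 3857 bp in PVT, 1211 bp in CP and 3064 bp in NAC, and ATAC listed 6 peaks. No region contrast of Bhlhe22 passed in the edgeR test as reported: the log2 change was 0.60 (SE 1.01, adjusted p = 0.814) for COR over PVT, 3.38 (SE 1.11, adjusted p = 0.0626) for COR over CP and 2.28 (SE 1.06, adjusted p = 0.233) for COR over NAC. With DESeq2, which called 28.8% of genes in COR over CP, 20.9% in COR over NAC and 36.9% in PVT over CP, Bhlhe22 passed in all 3 (adjusted p = 0.000501, 0.0375 and 0.00349). COR over CP also passed with DESeq2 size factors in edgeR (0.0482). Without CP WT replicate 1 the log2 change was 7.99 in COR over CP and 7.39 in PVT over CP. Without CP WT replicate 2 it was 2.91 and 2.29. These fits left 1 WT library in CP, so only the change is given. CP over NAC came to -5.71 without CP WT replicate 1. Leaving out both WT replicate 2 libraries of CP and NAC was a choice made after the data were seen. It gave 2.91 in COR over CP, 1.87 in COR over NAC and 2.26 in PVT over CP.

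Cux2 ran against the others, with a lower H3K27ac sum in every cortical library than in any thalamic one. COR libraries held 149 and 134 CPM in Polg(D181A) and 229 and 185 CPM in WT, and PVT libraries 276 and 307 CPM in Polg(D181A) and 334 and 408 CPM in WT. CP libraries held 18.2 and 88.2 CPM in Polg(D181A) and 82.0 and 95.3 CPM in WT, and NAC libraries 123 and 170.3 CPM in Polg(D181A) and 115 and 151 CPM in WT. All PVT libraries lay above all libraries of the other regions, and all CP libraries below all of COR. Cux2 was higher in PVT than in CP (log2 change 2.26, SE 0.39, adjusted p = 0.00154), higher in PVT than in NAC (1.24, SE 0.38, adjusted p = 0.0442) and higher in COR than in CP (1.31, SE 0.38, adjusted p = 0.0378). COR over PVT did not pass (-0.94, SE 0.38, adjusted p = 0.131), and neither did COR over NAC (0.29, adjusted p = 0.744) or CP over NAC (-1.02, adjusted p = 0.156). PVT over CP passed with any 1 library left out. COR over CP lost its call without any 1 COR library (1.23 to 1.37, adjusted p from 0.0668 to 0.0974). PVT over NAC lost it without any 1 PVT or NAC library (1.11 to 1.34), and CP over NAC came to -1.80 without CP Polg(D181A) replicate 2. PVT over NAC also lost its call with windows of 1 and 5 kb (adjusted p = 0.220 and 0.187) and without both WT replicate 2 libraries of CP and NAC (0.0544). CP over NAC passed with windows of 1 and 5 kb (0.0336 and 0.0432). Per kb of called peak all 6 Cux2 changes took the opposite sign, among them PVT over CP at -0.93 and COR over CP at -0.75, none of them past the threshold. That fit called no gene at all in COR over PVT, COR over NAC or PVT over NAC.

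The Cux2 gene is long, 192454 bp, so its window is longer than the others. Per kb of window Cux2 had 0.749 CPM in COR and 1.42 CPM in PVT, where Neurod2 had 3.15, Neurod6 2.70, Tbr1 2.58 and Emx1 2.21 CPM per kb in COR. In COR, 34 peaks covered 30717 bp, or 13.2% of the window, against 54 peaks and 66784 bp, or 28.7%, in PVT. The strongest PVT peaks were 1 of 4698 bp at 17930 bp outside the gene (chr5:122068345-122073042; 23.7 and 31.9 CPM in Polg(D181A), 35.8 and 44.4 CPM in WT, on the scale of the PVT table) and 1 of 4015 bp inside it (chr5:121946056-121950070; 29.5 and 27.5 CPM in Polg(D181A), 23.3 and 27.8 CPM in WT). The position inside the gene also held the strongest ATAC peak of the gene (chr5:121948329-121948932), with 13.6 and 16 CPM in Polg(D181A) and 6.96 and 9.22 CPM in WT, and peaks of COR and NAC. COR had its strongest peak elsewhere in the gene (chr5:121918563-121922860, 4298 bp; 18 and 11.1 CPM in Polg(D181A), 29.8 and 20.1 CPM in WT, on the scale of the COR table). PVT covered the inner start of Cux2 and NAC the outer, in a peak of 2712 bp (chr5:122048994-122051705).

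**Figure D4:**
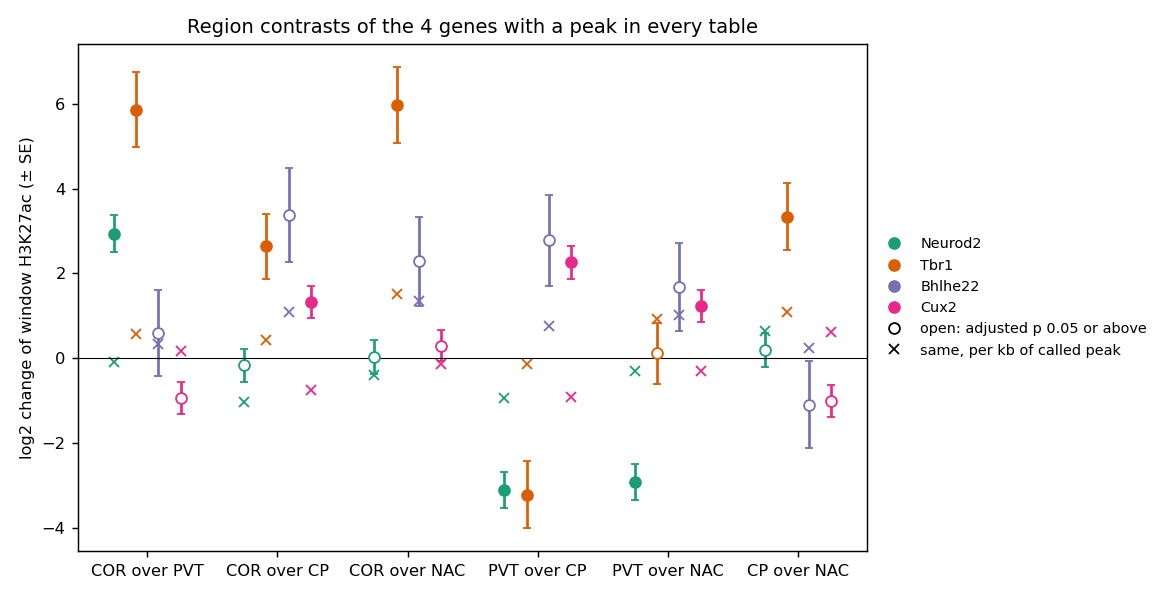
Log2 change of window H3K27ac between regions (y axis, with SE) for the 4 genes with a peak in every table, by contrast (x axis), filled where the adjusted p is under 0.05, with crosses for the same change per kb of called peak. Tbr1 is near 6 in COR over PVT and COR over NAC, Neurod2 near -3 where PVT is set over CP or NAC, and the cross of each filled point lies nearer to 0 than the point.

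Of 80 member peaks in COR, 33.8% overlapped a PVT peak by at least 1 bp, against 26.6% of all 141298 COR peaks, and 20% overlapped a CP peak, against 20.1%. From the other side, 40.0% of 65 member peaks in PVT overlapped a COR peak, against 28.4% of all PVT peaks, 45.5% of 44 in CP did, against 24.7% of all CP peaks, and 62.1% of 29 in NAC did, against 27.8% of all NAC peaks. Of the COR member peaks 27.5% overlapped a NAC peak, against 25.6% of all COR peaks. Of 34 member ATAC peaks, 50% overlapped a COR H3K27ac peak and 55.9% a PVT one, against 29.8% and 42.6% of all ATAC peaks, and from the other side 18.8% of the COR and 26.2% of the PVT member peaks overlapped an ATAC peak, against 16.6% and 26.0% of all. Cux2 supplied 54 of the 65 PVT and 17 of the 29 NAC peaks, so the shares of PVT and NAC peaks mostly describe Cux2, and 34 of the 80 COR, 17 of the 44 CP and 16 of the 34 ATAC peaks.

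Across the 16 H3K27ac libraries, the genes whose window sums followed each member most closely on the log2 scale were Zeb2 for Tbr1 (Pearson r = 0.974, n = 16 libraries), Kcnj4 for Neurod2 (0.955), Bdnf for Bhlhe22 (0.963), Dohh for Cux2 (0.954), Zfp459 for Emx2 (0.945), Arnt2 for Fezf2 (0.942), Nlk for Emx1 (0.934) and Pip5k1c for Neurod6 (0.925). The next in order were Spata46 and Pdk1 for Tbr1 (0.936 and 0.931), Baiap2 and Inpp5d for Neurod2 (0.951 and 0.949), Jpt1 for Bhlhe22 (0.960), Klhl35 and Syt17 for Cux2 (0.949 and 0.948), Mcm6 and Tead2 for Emx2 (0.914 and 0.879), Irf2 and Mical2 for Fezf2 (0.913 and 0.911), Zfp131 and Ccbe1 for Emx1 (0.926 and 0.924), and Rnf10 and Il12a for Neurod6 (0.921 and 0.912). Each was picked as the best of all tested genes over libraries that share region, depth and peak sets, and is given as a description. The r of Emx1, Emx2 and Fezf2 are partly set by the 4 PVT libraries, and those of Neurod6 by the 4 NAC libraries, in which their windows had no listed peak and were entered as 0. Among the 4 members with a peak in every table, r ran from -0.639 for Neurod2 with Cux2 to 0.384 for Tbr1 with Bhlhe22.

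Other genes of cortical neurons gave a context for the factors. Of 30 tested among 34 other cortical transcription factors, 12 were higher and 4 lower in COR than in PVT, 7 higher and 6 lower in COR than in CP, and 9 higher and 5 lower in COR than in NAC. Pou3f2, an upper-layer factor, had a mean of 211 CPM in COR and 6.41 CPM in PVT (log2 change 5.05, adjusted p = 1.46e-05, edgeR). Lmo4 had 94.9 and 10.6 CPM (3.17, adjusted p = 1.96e-05) and Pou3f3 216 and 11.2 CPM (4.35, adjusted p = 2.26e-05). In CP and NAC, Pou3f2 had 52.7 and 57.0 CPM and Pou3f3 185 and 151 CPM. Lmo4 was highest in the striatum, at 330 CPM in CP and 247 CPM in NAC. Foxp2, which is also expressed in thalamic and striatal neurons, ran the other way, with 59.7 CPM in COR, 428 CPM in PVT and 622 CPM in CP (log2 change -2.88 over PVT and -3.38 over CP). Among 12 genes of cortical excitatory neuron function, 10 were tested and 5 were higher and 1 lower in COR than in PVT, 6 higher and 0 lower than in CP, and 4 higher and 0 lower than in NAC. Kcnv1, a potassium channel subunit, had 143 CPM in COR and 5.28 CPM in PVT (log2 change 4.74). Nrgn, a calmodulin-binding protein, had 272 and 65.4 CPM (2.04). Kcnv1 was highest in CP, with 266 CPM there and 90.5 CPM in NAC, while Nrgn had 117 and 92.0 CPM. Grm2, a glutamate receptor gene, was lower in COR than in PVT, at 132 and 386 CPM, and higher than in CP, at 34.8 CPM. In the reverse direction, of 4 tested thalamic markers 3 were lower in COR than in PVT, and of 12 tested striatal markers 11 were lower in COR than in CP and 8 lower than in NAC. Drd1 and Ppp1r1b, both of the striatal list, were higher in COR than in PVT, Ppp1r1b at 139 and 32.6 CPM, and its window overlaps that of Neurod2.

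The second comparison set Polg(D181A) against WT within each region. No window of the 4 tested factors passed in any region, where the test called 0% of genes in COR, 0.013% in PVT, 1.47% in CP and 0% in NAC. Bhlhe22 in CP had the smallest adjusted p, at 42.6 and 17.9 CPM in Polg(D181A) against 2.04 and 0 CPM in WT (log2 change 4.85, SE 1.68, adjusted p = 0.196). Tbr1 in NAC had the smallest unadjusted p, at 9.33 and 8.59 CPM in Polg(D181A) against 0.858 and 0 CPM in WT (log2 change 4.19, SE 1.17, unadjusted p = 0.00380, adjusted p = 0.617). In both of these pairs the WT replicate 2 library, 1 of the 2 that stood apart, was at 0. The log2 change came to 14.1 for Bhlhe22 in CP without CP WT replicate 1, and to 12.3 for Tbr1 in NAC without NAC WT replicate 1. In these fits the lone WT library was the one at 0 and was taken to vary like the other groups. Only the change is therefore given for fits that left 1 library in a group. Without both WT replicate 2 libraries, Bhlhe22 in CP had 3.93. Cux2 in CP had 18.2 and 88.2 CPM in Polg(D181A) against 82.0 and 95.3 CPM in WT. Its log2 change was -2.28 without CP Polg(D181A) replicate 2, against -0.73 with it. Of the 16 gene and region pairs, 3 had an unadjusted p under 0.05 with edgeR, 2 of them in CP, where 13.7% of all windows had one, and 1 in NAC, where 5.49% had. DESeq2, which called 12.5% of all windows in CP and 4.07% in NAC, called the same 3 pairs (adjusted p = 0.000897 for Bhlhe22 in CP, 0.000106 for Tbr1 in NAC and 0.0360 for Tbr1 in CP). In CP, Neurod6 had 49.7 and 31.5 CPM in Polg(D181A) against 1.29 and 0 CPM in WT, Tbr1 42.7 and 52.3 against 14.1 and 4.74 CPM, and Emx1 0 and 6.4 against 39.5 and 47.7 CPM. None of these passed with edgeR. Tbr1 had a log2 change of 2.33 (adjusted p = 0.363). In the any-table fit Neurod6 had 5.96 (adjusted p = 0.131) and Emx1 -3.79 (adjusted p = 0.543). No difference of the Polg(D181A) effect between COR and another region passed for a member with edgeR, beside 0.0065% of genes called for COR and PVT, 0.872% for COR and CP and 0% for COR and NAC. Of the 12 such differences 1 had an unadjusted p under 0.05, that of Tbr1 for COR and NAC (log2 difference -3.94, adjusted p = 0.875), and DESeq2, which called 4.7% of such differences over all windows, called it (-3.96, adjusted p = 0.0234). That Tbr1 difference came to -12.1 without NAC WT replicate 1. The Bhlhe22 difference for COR and CP came to -13.1 without CP WT replicate 1, against -3.83 with it.

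Single peaks gave the same count. The 8 windows held 252 peaks, 218 of H3K27ac and 34 of ATAC. Of these 75 in COR, 65 in PVT, 28 in CP, 19 in NAC and 33 in ATAC passed the filter on low counts and were tested in the fit of their own table. The edgeR quasi-likelihood test called 0 of them in every table, where it called 0% of COR, PVT and CP peaks, 0.00286% of NAC peaks and 0.00114% of ATAC peaks. Unadjusted p fell under 0.05 for 8 member peaks in COR, 5 in PVT, 2 in CP, 1 in NAC and 0 in ATAC. It did so for 9.29% of all COR, 8.09% of PVT, 6.69% of CP, 1.2% of NAC and 6.13% of ATAC peaks tested. Among peaks to which DESeq2 gave an adjusted p, it called 20 of 80 member peaks in COR, against 26.6% of all, and 6 of 65 in PVT, against 10.4%. It called 9 of 40 in CP, against 29.9%, 1 of 11 in NAC, against 3.05%, and 0 of 34 in ATAC, against 0.00334%. The member shares in COR and PVT were near those of all peaks.

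Of the 16 member peaks under an unadjusted 0.05, 12 had a library at 0 counts. The other 4 included a Tbr1 peak in COR, 1543 bp past the gene (chr2:61815657-61817676), with 12.6 and 7.13 CPM in Polg(D181A) against 33.1 and 43.1 CPM in WT (log2 change -1.95, adjusted p = 0.535). A Neurod2 peak in PVT, 4447 bp before the gene (chr11:98334092-98334773), had 3.26 and 2.46 CPM in Polg(D181A) against 7.86 and 11.8 CPM in WT (-1.78, adjusted p = 0.556). A second Cux2 peak in PVT (chr5:121952675-121953326) ran the other way, with 3.96 and 7.47 CPM in Polg(D181A) against 0.871 and 0.675 CPM in WT (2.88, adjusted p = 0.556). The Cux2 peak of smallest p in PVT (chr5:122017389-122018680) had 0.986 and 1.26 CPM in Polg(D181A) against 5.41 and 8.47 CPM in WT (-2.62, adjusted p = 0.556). At the cortical peaks over the starts no genotype difference passed. Neurod6 had 134 and 97.3 CPM in Polg(D181A) against 127 and 86.5 CPM in WT (log2 change 0.11, adjusted p = 0.9998), Tbr1 88.9 and 92.6 against 52.9 and 48.5 CPM (0.84, adjusted p = 0.622), Emx1 20.3 and 22.5 against 51.6 and 44.5 CPM (-1.17, adjusted p = 0.586) and Neurod2 13.2 and 33.0 against 18.9 and 28.9 CPM (-0.05, adjusted p = 0.9998). The Tbr1 and Emx1 differences had opposite directions, and neither passed.

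RNA of the PVT held little of these factors apart from Cux2. Library totals ran from 26719334 to 115285349 counts, and whether reads were counted by strand was not stated in the labels. Fewer cells of a type and less RNA per cell cannot be told apart in these bulk samples. Cux2 (ENSMUSG00000042589) was above 1 CPM in 20 of 20 libraries, from 16 to 377 CPM with a median of 45.3. The medians of the others were 0.483 CPM for Emx1, 0.153 for Neurod6, 0.144 for Tbr1, 0.126 for Neurod2, 0.0872 for Emx2, 0.0633 for Fezf2 and 0.0393 for Bhlhe22. Per kb of gene span the median was 0.236 CPM for Cux2, 0.0444 for Neurod6, 0.0299 for Neurod2, 0.0292 for Emx1, 0.0131 for Emx2, 0.0128 for Tbr1, 0.0123 for Bhlhe22 and 0.0081 for Fezf2, so Cux2 ranked first per length as well. The lncRNA gene Gm52785 lies inside the span of Cux2, and reads where the 2 overlap are of uncertain origin.

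The low members were not evenly low. Tbr1 had 46.4 CPM in 1 depressive COX-positive and 11.9 CPM in 1 euthymic COX-positive Polg(D181A) library and 2.97 CPM at most in the other 18. Emx2 had 18.7 CPM in 1 WT library and 8.97 CPM in 1 euthymic COX-negative Polg(D181A) library, and Neurod6 had 15.2 CPM in 1 depressive COX-positive Polg(D181A) library. Emx1 reached 12.9 CPM in 1 euthymic COX-positive Polg(D181A) library and Neurod2 6.46 CPM in 1 depressive COX-positive Polg(D181A) library. Fezf2 stayed at or under 0.376 CPM in all 20 libraries, and Bhlhe22 passed 1 CPM in 1 library, at 2.14 CPM, and was at 0 in 7.

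Cux2 varied from library to library within most groups. It had 176, 377, 29.9 and 56.8 CPM in depressive COX-negative, 86.1, 47.8, 18.2 and 42.3 CPM in depressive COX-positive, 309, 19.99, 352 and 16 CPM in euthymic COX-negative and 197, 24.0, 140.6 and 106 CPM in euthymic COX-positive Polg(D181A) libraries, against 33.5, 19.9, 42.8 and 25.8 CPM in the euthymic COX-positive WT libraries. Every Polg(D181A) group held at least 1 library inside the WT range or below it. The means were 160.0 ± 158 CPM, 48.6 ± 28.1 CPM, 174 ± 181.4 CPM and 117 ± 72 CPM in these Polg(D181A) groups and 30.5 ± 9.9 CPM in WT (SD, n = 4 each). Euthymic COX-positive Polg(D181A) over WT gave a log2 change of 1.94 for Cux2 (SE 1.19, adjusted p = 0.431, edgeR quasi-likelihood), which did not pass.

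**Figure D5:**
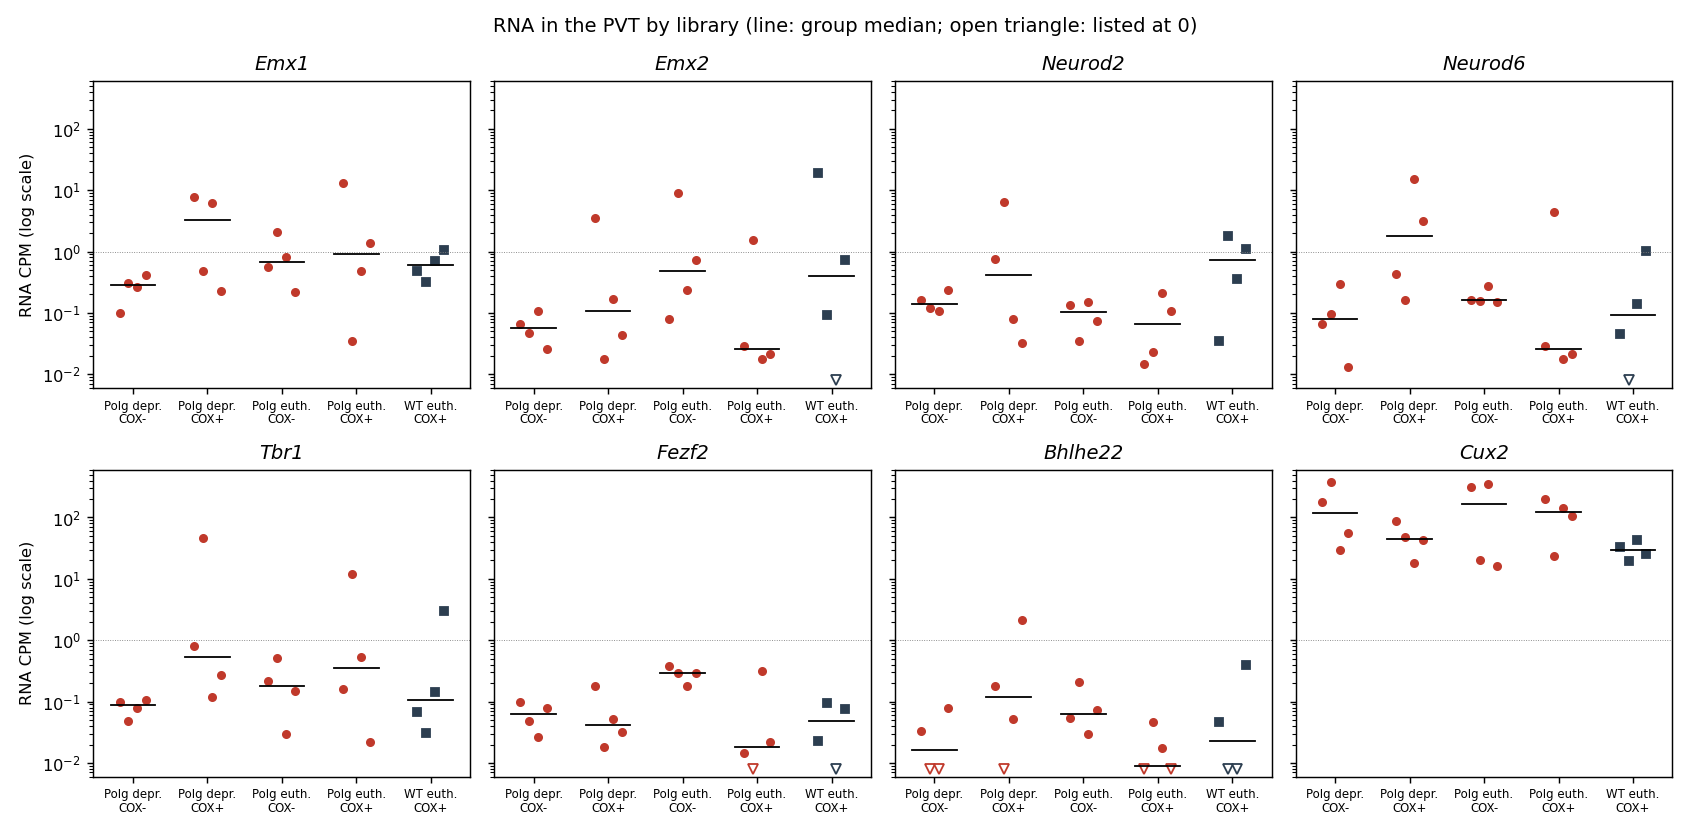
RNA of the 8 genes in the PVT (CPM, log scale on the y axis) by group (x axis), with Polg(D181A) libraries as circles, WT libraries as squares, group medians as lines and libraries at 0 as open triangles. Cux2 lies between 16 and 377 CPM in all 20 libraries, while the other genes mostly lie under 1 CPM with single libraries far above.

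No member passed in any of the 7 RNA contrasts, with 7 of the 8 tested and Bhlhe22 removed by the filter on low counts. The edgeR quasi-likelihood test over 28446 genes called 0% in 6 of the contrasts and 1.24% in depressive over euthymic Polg(D181A) samples of both COX classes, where leaving out any 1 library of the contrast left 0 genes called. Unadjusted p fell under 0.05 for 1 member in Polg(D181A) over WT, 0 in COX-negative over COX-positive among euthymic, 4 among depressive and 3 over both states, and 1 in each of the 3 contrasts of depressive over euthymic. Over all genes the share under 0.05 was 15.3% in Polg(D181A) over WT, 21.2%, 19.9% and 22.8% in the 3 COX contrasts, and 17.5% to 22.6% in the others. A count of 1 of 7 members is near the background. The nearest to the threshold was Tbr1 in COX-negative over COX-positive Polg(D181A) samples of both states, with a log2 change of -5.45 (SE 1.47) and an adjusted p of 0.0551. Its COX-negative libraries ran from 0.0475 to 0.105 CPM in depressive and from 0.0299 to 0.508 CPM in euthymic samples, and its COX-positive libraries from 0.117 to 46.4 CPM in depressive and from 0.0217 to 11.9 CPM in euthymic samples. DESeq2 called Neurod6 and Neurod2 in COX-negative over COX-positive among depressive samples, Neurod6 and Emx1 over both states, and Neurod2 in depressive over euthymic COX-positive samples and over both classes. In these contrasts DESeq2 gave an adjusted p to 4, 6, 6 and 4 members and called 10.7%, 10.3%, 8.1% and 10.4% of all genes with one. Tbr1 in COX-negative over COX-positive of both states passed with no filter on low counts (adjusted p = 0.0267) and with a stricter filter (adjusted p = 0.0489).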

How the data were processed

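H3K27ac and ATAC peaks and RNA were measured in 40 of the 44 libraries; 4 input libraries of mixed genotypes were not used here. All values used are raw counts, per peak or per gene, as deposited by the authors; the submitters' processing notes name STAR, HOMER, featureCounts of Subread, DESeq2 and the mm10 build, with no role or order given. Peaks were listed per region, over all 4 libraries of a table. Columns headed TG were taken as Polg(D181A), the only other genotype of each table.

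Peak counts were summed per protein-coding gene over its span and 20 kb on both sides, for 15373 of 21900 genes with a peak in all 4 tables, and fitted with edgeR 4.0.16 (TMM, filterByExpr, robust quasi-likelihood test, 2-sided, Benjamini-Hochberg adjustment over all features, threshold 0.05) with 1 mean per region and genotype. Peaks were fitted table by table and 28446 RNA genes over 5 groups. CPM on the window scale and on a peak table's scale are not the same, and each is named. Genes without a peak in all 4 tables were fitted in an alternative only. Pattern similarity used Pearson's r of log2 CPM with a prior count of 2. DESeq2 1.42.0, other scalings, filters and windows, and leaving out each library were the alternatives, and tests were tried on simulated counts. Named were the 8 genes, the 3 genes most like each, neighbours, peaks taken from those of smallest p and highest mean of a window, and 3 genes per direction of other lists at most; some genes that this rule names are not reported here. The genes and lists were chosen with earlier results of these data known. Totals per library limit precision as given with the values.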

Additional observations from a re-analysis of the deposited data

Results flagged for a closer look

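In RNA groups of 4 libraries, the highest library stood apart from the other 3 in 15 of 40 gene and group pairs. There the gap to the next, over the group's range, was above Dixon's critical value. The rate of about 1 pair in 20 for that value holds for normally distributed values and independent pairs. Low CPM values need not be so distributed, and the genes share libraries, so the count is not set against chance. All 15 were the highest library of low genes, and none was Cux2. Among euthymic COX-positive Polg(D181A) libraries, Emx1 had 12.9 CPM in 1 library (next highest 1.37), Emx2 1.56 CPM (next 0.0292), Neurod6 4.42 CPM (next 0.0292), Tbr1 11.9 CPM (next 0.534) and Fezf2 0.320 CPM (next 0.0217). In euthymic COX-negative Polg(D181A) libraries, Emx2 had 8.97 CPM (next 0.740) and Neurod6 0.269 CPM (next 0.161). In depressive COX-positive Polg(D181A) libraries, Tbr1 had 46.4 CPM (next 0.799), Neurod2 6.46 CPM (next 0.763), Emx2 3.49 CPM (next 0.169) and Bhlhe22 2.14 CPM (next 0.182). In the WT libraries, Emx2 had 18.7 CPM (next 0.716), Tbr1 2.97 CPM (next 0.141), Neurod6 1.03 CPM (next 0.141) and Bhlhe22 0.400 CPM (next 0.0458). The same library held the highest Emx2, Neurod6 and Tbr1 values of the euthymic COX-positive Polg(D181A) group. In the depressive COX-positive group, 1 library held the highest Neurod2 and Tbr1 values. The WT group had this pattern too, with the highest Neurod6, Tbr1 and Bhlhe22 values in 1 library. What these libraries share was not tested.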

How the results depend on the processing

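Of the member changes between regions that passed, those that kept their call under every setting and every left-out library except the per kb scale were Tbr1 in COR over PVT and COR over NAC and Cux2 in PVT over CP. Per kb of called peak the member changes that passed as reported did not pass, the Tbr1 values being 0.58 for COR over PVT, 0.43 for COR over CP, 1.51 for COR over NAC, -0.14 for PVT over CP and 1.08 for CP over NAC. In COR over PVT, COR over NAC and PVT over NAC the per kb fit called no gene at all, so those losses are not particular to the members. Signs turned per kb for Neurod2 in COR over PVT (-0.092) and COR over NAC (-0.40), for Cux2 in COR over PVT (0.18), COR over CP (-0.75), COR over NAC (-0.14), PVT over CP (-0.93), PVT over NAC (-0.32) and CP over NAC (0.61), and for Bhlhe22 in CP over NAC (0.24). Without peaks over another protein-coding gene, Neurod2 turned to 2.14 in COR over CP and 6.16 in PVT over NAC. The Polg(D181A) over WT change of Cux2 in CP turned to 0.35 with windows of 1 kb and to 0.36 with windows of 5 kb. Over genes with a peak in any table Neurod2 turned to -0.024 in COR over NAC. Tbr1 in PVT over NAC turned to -0.57 with windows of 1 kb and to -0.32 without both WT replicate 2 libraries of CP and NAC. With 1 library left out, Neurod2 ran from -0.15 to 0.24 in COR over NAC, from -0.46 to 0.35 in COR over CP and from -0.33 to 0.43 in CP over NAC, Tbr1 from -0.32 to 4.18 in PVT over NAC and Bhlhe22 from -5.71 to 0.11 in CP over NAC. The per kb scale divides by the length called, which differs between tables, and the cause of the other turns was not tested. Same-numbered chromatin libraries did not deviate together (correlation of their deviations from -0.0603 to 0.13 over pairs of window groups and from -0.0514 to 0.0168 over the peak tables), so the replicate block was not part of the reported tests. With it, Tbr1 had 2.75 in COR over CP (adjusted p = 0.0615) and 3.42 in CP over NAC (adjusted p = 0.0649), neither past the threshold, and no other member call between regions changed. No paired analysis was possible because the RNA columns carry no replicate numbers, for the RNA contrasts. A library at 0 counts was found for 43 of 44 member peaks in CP and 23 of 29 in NAC, against 46 of 80 in COR, 20 of 65 in PVT and 2 of 34 in ATAC, and depth limits the RNA values of all members but Cux2, which mostly lie under 1 CPM.

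With size factors in place of TMM the number of windows called was 1 for Polg(D181A) over WT in NAC (reported 0) and 2 for the COR minus PVT difference (reported 1). With DESeq2 the number of windows called was 3686 for COR over PVT (reported 2065), 4425 for COR over CP (reported 2212), 3208 for COR over NAC (reported 1408), 5672 for PVT over CP (reported 3496), 4316 for PVT over NAC (reported 2407), 2811 for CP over NAC (reported 787), 385 for Polg(D181A) over WT in COR (reported 0), 92 for Polg(D181A) over WT in PVT (reported 2), 1916 for Polg(D181A) over WT in CP (reported 226), 626 for Polg(D181A) over WT in NAC (reported 0), 352 for the COR minus PVT difference (reported 1), 1529 for the COR minus CP difference (reported 134) and 723 for the COR minus NAC difference (reported 0). With windows of 1 kb the number of windows called was 1316 for COR over PVT (reported 2065), 798 for COR over NAC (reported 1408), 2286 for PVT over CP (reported 3496), 1542 for PVT over NAC (reported 2407), 472 for CP over NAC (reported 787), 3 for Polg(D181A) over WT in COR (reported 0), 4 for Polg(D181A) over WT in PVT (reported 2), 2 for Polg(D181A) over WT in NAC (reported 0), 5 for the COR minus PVT difference (reported 1) and 5 for the COR minus NAC difference (reported 0). With windows of 5 kb the number of windows called was 825 for COR over NAC (reported 1408), 9 for Polg(D181A) over WT in COR (reported 0), 1 for Polg(D181A) over WT in NAC (reported 0), 8 for the COR minus PVT difference (reported 1) and 2 for the COR minus NAC difference (reported 0). Per kb of called peak the number of windows called was 0 for COR over PVT (reported 2065), 0 for COR over NAC (reported 1408) and 0 for PVT over NAC (reported 2407). Without peaks over another protein-coding gene the number of windows called was 371 for CP over NAC (reported 787), 1 for Polg(D181A) over WT in COR (reported 0), 1 for Polg(D181A) over WT in PVT (reported 2), 141 for Polg(D181A) over WT in CP (reported 226), 2 for the COR minus PVT difference (reported 1), 67 for the COR minus CP difference (reported 134) and 1 for the COR minus NAC difference (reported 0). Over genes with a peak in any table the number of windows called was 3538 for COR over PVT (reported 2065), 3651 for COR over CP (reported 2212), 2450 for COR over NAC (reported 1408), 5289 for PVT over CP (reported 3496), 3810 for PVT over NAC (reported 2407), 1661 for CP over NAC (reported 787) and 2 for Polg(D181A) over WT in NAC (reported 0). With the replicate block the number of windows called was 470 for CP over NAC (reported 787), 1 for Polg(D181A) over WT in PVT (reported 2), 35 for Polg(D181A) over WT in CP (reported 226) and 20 for the COR minus CP difference (reported 134). Without both WT replicate 2 libraries of CP and NAC the number of windows called was 4238 for COR over PVT (reported 2065), 3801 for COR over CP (reported 2212), 2603 for COR over NAC (reported 1408), 3888 for PVT over NAC (reported 2407), 1297 for CP over NAC (reported 787), 26 for Polg(D181A) over WT in COR (reported 0), 5 for Polg(D181A) over WT in PVT (reported 2), 595 for Polg(D181A) over WT in CP (reported 226), 8 for Polg(D181A) over WT in NAC (reported 0), 4 for the COR minus PVT difference (reported 1), 441 for the COR minus CP difference (reported 134) and 1 for the COR minus NAC difference (reported 0). Leaving out 1 library gave window counts of 1369 to 6381 for COR over CP, 739 to 1665 for COR over NAC, 1281 to 1652 for COR over PVT, 351 to 4913 for CP over NAC, 2246 to 7375 for PVT over CP, 1496 to 2504 for PVT over NAC, 5 to 11 for Polg(D181A) over WT in COR, 31 to 3712 for the COR minus CP difference, 0 to 251 for the COR minus NAC difference, 0 to 8 for the COR minus PVT difference, 357 to 4810 for Polg(D181A) over WT in CP, 0 to 367 for Polg(D181A) over WT in NAC and 1 to 2 for Polg(D181A) over WT in PVT.

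With DESeq2 the number of peaks called was 37562 for COR (reported 0), 12887 for PVT (reported 0), 35274 for CP (reported 0), 2007 for NAC (reported 3) and 3 for ATAC (reported 1). With the replicate block the number of peaks called was 10 for COR (reported 0), 1 for CP (reported 0), 0 for NAC (reported 3) and 2 for ATAC (reported 1). With total counts only the number of peaks called was 8 for CP (reported 0) and 119 for NAC (reported 3). With no filter on low counts the number of peaks called was 1 for CP (reported 0) and 29 for NAC (reported 3). With size factors in place of TMM the number of peaks called was 11 for NAC (reported 3). Leaving out 1 library gave peak counts of 0 to 4 for ATAC, 0 to 5436 for CP and 0 to 201 for NAC. It gave 0 throughout for COR and PVT (peaks).

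With size factors in place of TMM the number of RNA genes called was 377 for COX-negative over COX-positive in both states (reported 0) and 780 for depressive over euthymic in both classes (reported 354). With DESeq2 the number of RNA genes called was 1165 for Polg(D181A) over WT (reported 0), 2120 for COX-negative over COX-positive in euthymic samples (reported 0), 2073 for COX-negative over COX-positive in depressive samples (reported 0), 2192 for COX-negative over COX-positive in both states (reported 0), 1781 for depressive over euthymic in COX-positive samples (reported 0), 2565 for depressive over euthymic in COX-negative samples (reported 0) and 2143 for depressive over euthymic in both classes (reported 354). With no filter on low counts the number of RNA genes called was 2 for Polg(D181A) over WT (reported 0), 458 for COX-negative over COX-positive in euthymic samples (reported 0), 586 for COX-negative over COX-positive in depressive samples (reported 0), 1628 for COX-negative over COX-positive in both states (reported 0), 1170 for depressive over euthymic in COX-negative samples (reported 0) and 1887 for depressive over euthymic in both classes (reported 354). With a stricter filter the number of RNA genes called was 283 for COX-negative over COX-positive in both states (reported 0) and 206 for depressive over euthymic in both classes (reported 354). With only the groups of a contrast the number of RNA genes called was 0 for depressive over euthymic in both classes (reported 354). Leaving out 1 library gave 0 RNA genes called in every contrast, also in depressive over euthymic of both classes (reported 354). The count of member peaks called was 0 in every contrast as reported. With DESeq2 the number of member peaks called was 20 for COR, 6 for PVT, 9 for CP and 1 for NAC. Leaving out 1 library gave member peak counts of 0 to 2 for CP. It gave 0 throughout for ATAC, COR, NAC and PVT (member peaks). The count of members called in RNA was 0 in every contrast as reported. With DESeq2 the number of members called in RNA was 2 for COX-negative over COX-positive in depressive samples, 2 for COX-negative over COX-positive in both states, 1 for depressive over euthymic in COX-positive samples and 1 for depressive over euthymic in both classes. With no filter on low counts the number of members called in RNA was 1 for COX-negative over COX-positive in both states. With a stricter filter the number of members called in RNA was 1 for COX-negative over COX-positive in both states. Leaving out 1 library gave 0 calls throughout (RNA members).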
